A study of Homo sapiens with 9 samples.

Results

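The genes described are 9 of the interleukin-6 (IL6) family and its signalling chain: the cytokines IL6, LIF and IL11, the receptor chains IL6R, IL6ST, OSMR and LIFR, the transcription factor STAT3 and the feedback inhibitor SOCS3. They were taken by symbol from a table of 58037 genes measured by RNA sequencing. Each of the 9 was found, and 9 of 9 passed the filter on low values, as 12965 genes of the table did. Cytokines of this family bind a ligand-specific receptor chain and signal through gp130, the shared chain encoded by IL6ST. The receptor-bound JAK kinases then phosphorylate STAT3, which enters the nucleus and switches on target genes. SOCS3 is such a target, and its protein binds gp130 and the JAK kinases and dampens the signal. In breast cancer cells the pathway is known for autocrine growth and survival signals.

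RNA came from 3 human breast cancer cell lines that the study calls triple-negative, and values by line are given in the order MDA-MB-231, then MDA-MB-436, then MDA-MB-453. Every line was sequenced in 3 conditions, with 1 library per line and condition. The first is labelled GSK343, after a small molecule that inhibits EZH2, the histone methyltransferase of Polycomb repressive complex 2. The second is labelled shEZH2, for a knockdown of EZH2 by short hairpin RNA. The third is the control, untreated per the sample labels and named shControl in the column headers of the table. No dose, duration, vehicle or hairpin sequence is given in the sources used here, and all cells grew in DMEM with serum. The lines serve as replicates (n = 3), so a test does not measure the spread between cultures of a line. Its spread is pooled over all 9 libraries, so it mixes the unevenness of the lines under both labels. It is also moderated with the spread of other genes, so it is not the evenness of the 3 lines in a contrast alone.

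The libraries correspond to 14757043 to 18283426 reads over genes, and between 22975 and 27230 genes had a value above 0. EZH2 itself, the check of the labels, had an RPKM (a read count divided by gene length and by library size) of 5.77, 7.53 and 7.99 under the GSK343 label. It had 16.4, 37.4 and 16.2 under the shEZH2 label, against 27.4, 38.9 and 42.3 in the controls. The EZH2 transcript was thus lowest in the libraries labelled with the inhibitor, and its fold change in the libraries labelled shEZH2 did not pass the test (limma adjusted p = 0.0597), so both conditions are named by their labels throughout. Libraries labelled MDA-MB-453 lay between those of the other lines, with a margin of a factor of 1.25, for 96.3% of the tested genes under GSK343, 98.3% under shEZH2 and 75.8% in the control. For the 9 genes these numbers were 9, 9 and 5, and the 4 outside in the control were IL6ST, OSMR, LIFR and SOCS3. Whether these libraries come from a line of their own was not tested, and if they do not, n = 3 does not stand for 3 independent lines and every p rests on fewer. For the 9 genes, and for other pathway genes in the mean of both conditions, named calls that are lost without the 3 libraries are given below. Marker calls, and calls of other pathway genes under a single label, were not followed without them. The RPKM of 12 luminal markers summed to 147 to 209 under GSK343, 143 to 223 under shEZH2 and 160.0 to 270.2 in the controls, and in each condition MDA-MB-231 had the highest such sum of the 3 lines. Mesenchymal markers (8 genes) summed to 903 to 968 under GSK343 and 867 to 974 under shEZH2, against 1164 to 1285 in the controls. Leukocyte markers (8 genes) summed to 6.20 to 8.52 RPKM under GSK343 and 9.20 to 13.0 under shEZH2, against 4.54 to 6.42 in the controls. Most of the sum in each library was CD14, at 3.78 to 12.5 RPKM, and ITGAM reached 2.27, while CD3E was at 0 in 8 of 9 libraries. Fibroblast markers (8 genes) summed to 3.71 to 4.94 RPKM under GSK343 and 4.02 to 8.39 under shEZH2, against 3.14 to 4.62 in the controls. In the mean of both conditions 1 of 8 tested mesenchymal markers was called higher, FN1 (0.69, adjusted p = 0.00568), and 3 lower, CAV1 (-1.46, adjusted p = 0.000152), AXL (-0.71, adjusted p = 0.00559) and VIM (-0.57, adjusted p = 0.0276). Of 9 tested luminal markers 0 were called higher and 1 lower, KRT18 (-0.61, adjusted p = 0.018), of 4 fibroblast markers 1 higher, LUM (adjusted p = 0.0416), and of 2 leukocyte markers 0. Called under shEZH2 alone were CD14 (adjusted p = 0.0332) and ERBB3 (adjusted p = 0.0448), both higher. Of all tested genes 12.2% were called higher and 4.30% lower in the mean of both, and 8.35% higher under shEZH2. The part of these markers in the results below was not tested.

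Upstream sequences are shown for IL6 and IL11, the cytokines that rose most, because the motifs of the factors classically placed on them can be read in place. RefSeq windows of 250 bases before a transcript start (GRCh38.p14) were available for 8 of the 9 genes. Capitals mark matches to 5 motifs searched on both strands. These were NF-kB (GGGA, any base, TT, any base, CC, held by 1.26% of 35116 windows), C/EBP (TTGCNNAA, 9.05%), the CRE core (TGACGT, 7.1%), AP-1 (TGANTCA, 6.57%) and STAT (TTCNNNGAA, 6.57%). The IL6 window runs to 22727199 and is printed up to the base before an annotated exon. It lies inside the gene bounds given below because another annotated transcript starts further upstream. The IL6 stretch is chr7:22726950-22727146 on the plus strand, and its capitals are, in order, the CRE core on the reverse strand, C/EBP and NF-kB. The IL11 stretch is chr19:55370464-55370713, read on the minus strand, and its capitals are the AP-1 match.
IL6: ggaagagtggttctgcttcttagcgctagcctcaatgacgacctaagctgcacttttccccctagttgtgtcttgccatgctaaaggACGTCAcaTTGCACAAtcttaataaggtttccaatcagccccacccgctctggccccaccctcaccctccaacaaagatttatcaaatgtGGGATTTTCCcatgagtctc
IL11: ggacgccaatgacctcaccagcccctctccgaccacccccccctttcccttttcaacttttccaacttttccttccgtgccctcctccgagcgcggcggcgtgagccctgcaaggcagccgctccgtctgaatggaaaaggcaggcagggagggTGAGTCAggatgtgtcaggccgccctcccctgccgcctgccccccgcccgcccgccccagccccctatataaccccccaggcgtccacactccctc
The whole 250-base IL6 window held 0 STAT matches and 0 AP-1 matches in these letters, and the IL11 stretch none of the other 4 motifs. Among the other genes, windows of LIFR held STAT and C/EBP matches and a window of OSMR held 1 C/EBP match. Those of IL6R, IL6ST, STAT3 and SOCS3 held none of the 5. The SOCS3 windows are chr17:78359668-78359917, inside the gene bounds given below, and chr17:78360926-78361175, on the minus strand. Neither covers the bases directly upstream of those bounds, which end at 78360077, so these bases were not searched.

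IL6, the founding cytokine of the family, rose in all 3 lines under both labels (ENSG00000136244.11, chromosome 7, 22725884 to 22732002, plus strand, GENCODE 29 gene bounds on GRCh38). Its RPKM was 59.3, 149.6 and 120.2 under GSK343. Under shEZH2 it was 48.4, 156.8 and 101.0, against 13.3, 44.1 and 28.6 in the controls. Every intervention library stood above every control, and MDA-MB-436 was the highest line in each condition. The means were 109.7 ± 46.0 under GSK343, 102.0 ± 54.2 under shEZH2 and 28.7 ± 15.4 in the controls (RPKM, SD, n = 3 each). Fold changes were fitted with limma on log2(RPKM + 1) within lines, and errors are the half-widths of 95% confidence intervals. IL6 rose by 1.95 ± 0.31 on the log2 scale under GSK343 (3.86-fold, adjusted p = 7.23e-05) and by 1.79 ± 0.31 under shEZH2 (3.46-fold, adjusted p = 9.19e-05). Within a line the RPKM ratio of GSK343 to control was 4.45, 3.39 and 4.20, and that of shEZH2 to control 3.63, 3.55 and 3.52. Counting intervals of these 6 ratios ran from 3.20 at the lowest bound to 4.94 at the highest. In bulk RNA a higher share of cells that express a gene and more RNA per cell cannot be told apart. Exons of IL6 share 428 of 2069 bases with AC073072.1 on the opposite strand, listed at 0.265 to 0.786 RPKM, and the strand setting of the counting is not given in the sources used here.

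IL11, a cytokine that signals through IL11RA and gp130 and is known for its role in bone metastasis of breast cancer, rose under both labels as well (ENSG00000095752.6, chromosome 19, 55364389 to 55370463, minus strand). Its RPKM was 94.1, 10.1 and 59.2 under GSK343 and 96.0, 10.8 and 54.7 under shEZH2, against 48.3, 4.64 and 13.8 in the controls. The groups overlapped and the lines sat far apart, with MDA-MB-436 the lowest in each condition, while each line stood above its own control. The fold change was 1.31 ± 0.44 under GSK343 (2.49-fold, adjusted p = 0.00389) and 1.32 ± 0.44 under shEZH2 (2.49-fold, adjusted p = 0.00369). The library ratio to control was 1.95, 2.17 and 4.29 under GSK343 and 1.99, 2.33 and 3.96 under shEZH2. Without the 3 libraries labelled MDA-MB-453 the fold change was 0.96 under GSK343 (adjusted p = 0.0487) and 1.02 under shEZH2, where it no longer passed (adjusted p = 0.0606).

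LIF, the leukemia inhibitory factor, which signals through LIFR and gp130, passed under shEZH2 and narrowly missed under GSK343 (ENSG00000128342.4, chromosome 22, 30240447 to 30246851, minus strand). Its RPKM was 30.7, 64.4 and 38.9 under GSK343 and 27.6, 67.6 and 46.5 under shEZH2, against 25.2, 37.9 and 22.4 in the controls. Groups overlapped, each line was above its own control, and MDA-MB-231 had the smallest difference. The fold change was 0.66 ± 0.37 under shEZH2 (1.58-fold, adjusted p = 0.0314) and 0.60 ± 0.37 under GSK343 (adjusted p = 0.0522). Ratios to control were 1.22, 1.70 and 1.74 under GSK343 and 1.10, 1.78 and 2.07 under shEZH2. The shEZH2 call was lost when the shEZH2 library of MDA-MB-436 (0.61, adjusted p = 0.113) or MDA-MB-453 (0.52, adjusted p = 0.166) was left out, and likewise for the controls of MDA-MB-436 (0.58, adjusted p = 0.086) and MDA-MB-453 (0.52, adjusted p = 0.128). It was also lost without the whole line MDA-MB-436 (0.58, adjusted p = 0.145) or the 3 libraries labelled MDA-MB-453 (0.47, adjusted p = 0.241). Without the control of MDA-MB-231 the GSK343 value passed (0.81, adjusted p = 0.0167). Exons of LIF share 175 of 3969 bases with AC004264.1 on the opposite strand, at 0.512 to 2.69 RPKM.

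**Figure D1:**
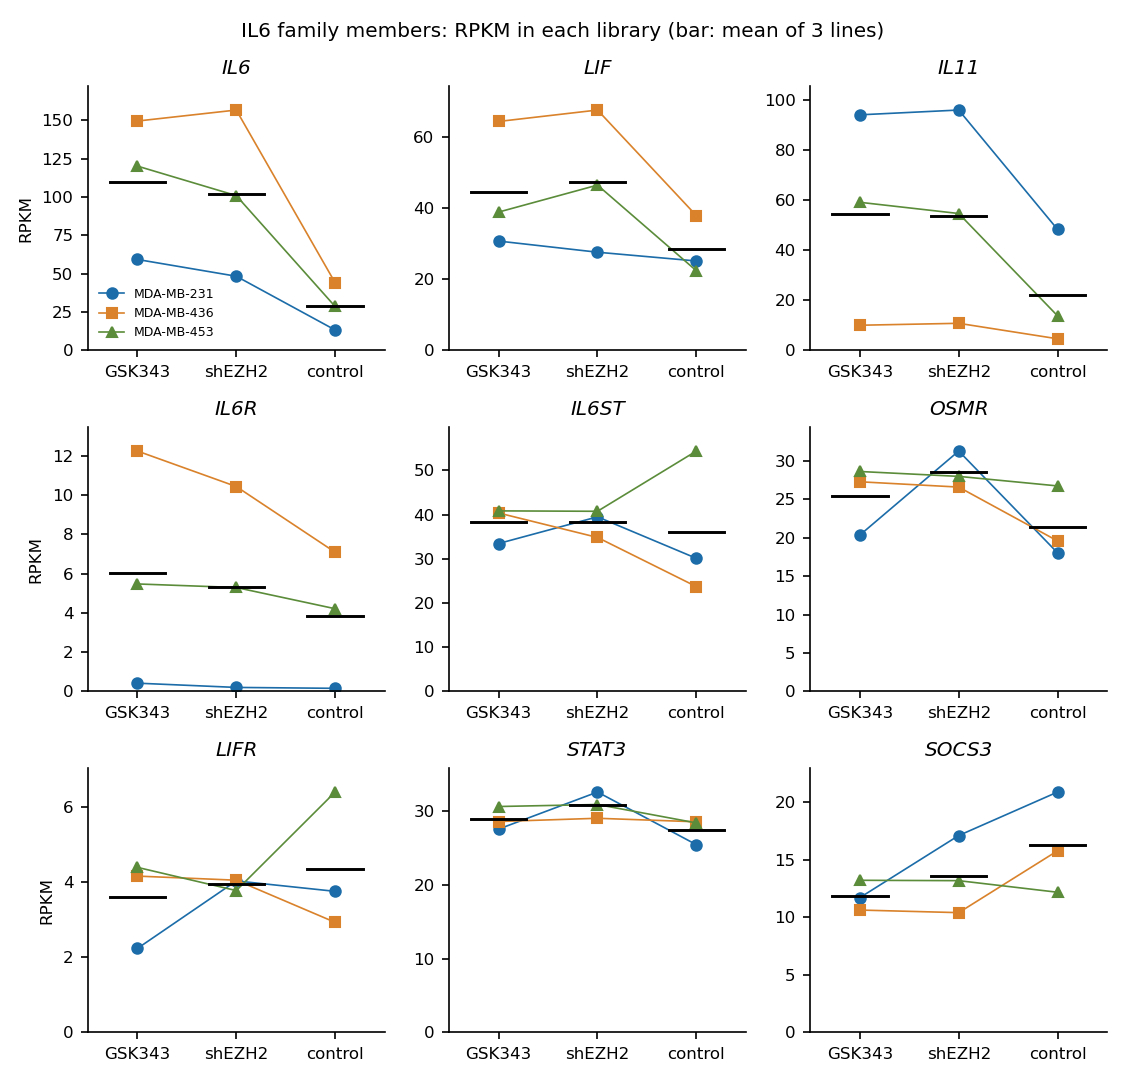
Each panel shows 1 of the 9 genes, with RPKM on the vertical axis, the libraries labelled GSK343, shEZH2 and control from left to right, a marker for each cell line, and a bar at the mean of the 3 lines. IL6 is the gene whose 6 intervention libraries (48.4 to 156.8) all lie above its 3 controls (13.3 to 44.1), while STAT3 keeps between 25.4 and 32.6 in all 9 libraries.

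The receptors showed no call in either contrast. IL6R, the chain that binds IL6 itself, had RPKM of 0.420, 12.2 and 5.47 under GSK343 and 0.203, 10.4 and 5.29 under shEZH2, against 0.157, 7.09 and 4.21 in the controls (ENSG00000160712.12, chromosome 1, 154405193 to 154469450). Each line was above its own control under both labels. MDA-MB-231 was nearly without the transcript, with 40, 24 and 17 reads under GSK343, shEZH2 and control, so its ratio for GSK343 of 2.67 has a counting interval of 1.48 to 5.03. The fold change was 0.44 ± 0.32 under GSK343 (adjusted p = 0.084) and 0.28 ± 0.32 under shEZH2 (adjusted p = 0.237).

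IL6ST, which encodes gp130, had RPKM of 33.4, 40.3 and 40.8 under GSK343 and 39.5, 34.8 and 40.7 under shEZH2, against 30.1, 23.7 and 54.4 in the controls (ENSG00000134352.19, chromosome 5, 55935095 to 55994993). The intervention libraries lay inside the range of the controls, and the lines went different ways. Ratios to control were 1.11, 1.70 and 0.751 under GSK343 and 1.31, 1.47 and 0.749 under shEZH2, so MDA-MB-453 was below its control while the other lines were above theirs. The mean fold change was 0.16 ± 0.44 under GSK343 (adjusted p = 0.643) and 0.17 ± 0.44 under shEZH2 (adjusted p = 0.619).

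OSMR, the oncostatin M receptor chain that pairs with gp130, had RPKM of 20.4, 27.3 and 28.6 under GSK343 and 31.3, 26.6 and 28.01 under shEZH2, against 18.05, 19.6 and 26.8 in the controls (ENSG00000145623.12, chromosome 5, 38845858 to 38945596). Each library was above the control of its line, and the groups overlapped. Its fold change was 0.24 ± 0.36 under GSK343 (adjusted p = 0.385) and 0.42 ± 0.36 under shEZH2 (adjusted p = 0.123). OSMR exons share 229 of 7174 bases with RICTOR on the opposite strand, and those of IL6ST share 797 of 9292 with AC008914.1, listed at 0.

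LIFR, the receptor chain for LIF, was among the lowest transcripts of the set, with RPKM of 2.23, 4.16 and 4.39 under GSK343 and 4.03, 4.05 and 3.77 under shEZH2, against 3.75, 2.93 and 6.39 in the controls (ENSG00000113594.9, chromosome 5, 38474963 to 38608354). Only MDA-MB-436 was above its control under both labels, with ratios of 1.42 and 1.38. MDA-MB-453 was below its control under both, with ratios of 0.687 and 0.590. The fold change was -0.21 ± 0.46 under GSK343 (adjusted p = 0.565) and -0.06 ± 0.46 under shEZH2 (adjusted p = 0.872).

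STAT3, the transcription factor at the end of the chain, had RPKM of 27.5, 28.6 and 30.6 under GSK343 and 32.6, 29.01 and 30.9 under shEZH2, against 25.4, 28.5 and 28.4 in the controls (ENSG00000168610.14, chromosome 17, 42313324 to 42388568). All 3 shEZH2 libraries were above all 3 controls, by a small margin, and the GSK343 and control libraries overlapped. The fold change was 0.07 ± 0.29 under GSK343 (adjusted p = 0.769) and 0.16 ± 0.29 under shEZH2 (adjusted p = 0.461), so the intervals leave room for at most 0.45 on the log2 scale. These are levels of STAT3 RNA, and its phosphorylation was not measured.

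SOCS3, the feedback inhibitor, was the gene of the set with the most negative fold change, but it was not called. Its RPKM was 11.7, 10.6 and 13.2 under GSK343 and 17.1, 10.4 and 13.2 under shEZH2, against 20.9, 15.8 and 12.2 in the controls (ENSG00000184557.4, chromosome 17, 78356778 to 78360077). Both MDA-MB-231 and MDA-MB-436 had less SOCS3 RNA than their controls under both labels, and MDA-MB-453 was close to its control. Ratios to control were 0.561, 0.674 and 1.09 under GSK343 and 0.819, 0.659 and 1.08 under shEZH2. The fold change was -0.40 ± 0.39 under GSK343 (adjusted p = 0.181) and -0.24 ± 0.39 under shEZH2 (adjusted p = 0.403). Without the libraries labelled MDA-MB-453 the GSK343 value was -0.66 and did not pass either (adjusted p = 0.151).

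**Figure D2:**
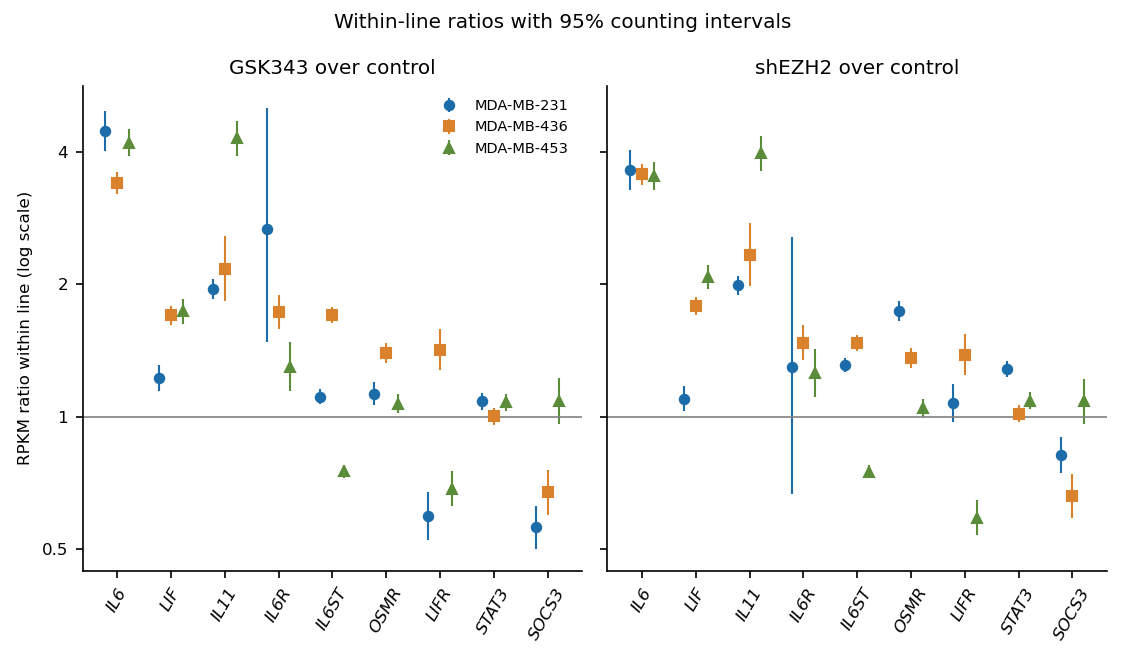
RPKM ratio to control within each cell line, on a log axis, for GSK343 (left) and shEZH2 (right), with a marker per line and bars for the 95% counting interval. IL6 lies between 3.39 and 4.45 in all lines, IL11 reaches 4.29 and 3.96 in MDA-MB-453, and IL6ST, LIFR and SOCS3 have lines on both sides of 1.

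Across the set, 2 of 9 genes were called higher under GSK343 (IL6, IL11) and 3 of 9 under shEZH2 (IL6, LIF, IL11), and 0 of 9 were called lower in either. Of all tested genes, 7.85% were called under GSK343 (6.25% higher and 1.60% lower) and 10.6% under shEZH2 (8.35% higher and 2.28% lower). The median fold change of the 9 was 0.24 under GSK343 and 0.28 under shEZH2, and that of all genes was 0.06 and 0.05 on the same log2 scale. With both conditions averaged, IL6 (1.87 ± 0.26, adjusted p = 1.14e-05), IL11 (1.32 ± 0.38, adjusted p = 0.00105) and LIF (0.63 ± 0.32, adjusted p = 0.016) passed, LIF not without the libraries labelled MDA-MB-453 (0.49, adjusted p = 0.152). That contrast called 12.2% of all genes higher and 4.30% lower. IL6, LIF, IL11, IL6R, OSMR and STAT3, which are 6 of the 9, were above the control of their own line under both labels in all 3 lines, as were 19.4% of tested genes, and 0 of the 9 were below in all of them, as were 10.5% of tested genes. The 3 libraries of a group did not overlap those of the controls for IL6 under GSK343, as for 6.67% of genes lying above, and for IL6 and STAT3 under shEZH2, as for 7.39%. For 0 of the 9 did a group lie wholly below the controls, as 3.03% of genes did under GSK343 and 4.48% under shEZH2. Both contrasts use the same 3 control libraries, so they do not replicate each other.

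**Figure D3:**
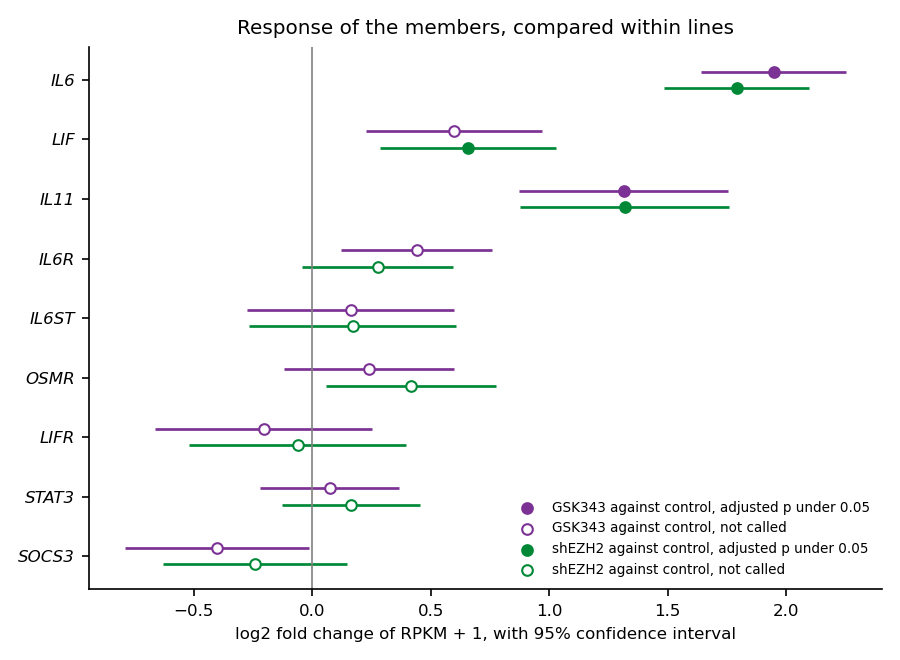
Log2 fold change of RPKM + 1 (horizontal axis) of each gene under GSK343 and shEZH2 against control, with 95% confidence intervals; filled points have an adjusted p under 0.05 and open points do not. The 3 cytokines lie to the right, IL6 at 1.95 and 1.79, while the intervals of IL6ST, LIFR and STAT3 cover 0.

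Set against each other, the libraries labelled GSK343 and shEZH2 differed for 0 of the 9 genes by limma, and for 0 of 9 at an unadjusted p under 0.05. The contrast called 0% of all tested genes, and their share at an unadjusted p under 0.05 is not given. The 2 groups overlapped for all 9 genes, whereas 1.42% of tested genes lay wholly above and 1.34% wholly below. The difference was 0.16 ± 0.31 for IL6, -0.0049 ± 0.44 for IL11 and -0.06 ± 0.37 for LIF. Among the receptors it was 0.16 ± 0.32 for IL6R, -0.01 ± 0.44 for IL6ST, -0.18 ± 0.36 for OSMR and -0.14 ± 0.46 for LIFR. For STAT3 it was -0.09 ± 0.29, and for SOCS3 -0.16 ± 0.39. With 3 pairs these intervals admit differences of up to 0.46 for IL6 and down to -0.60 for LIFR, so these p-values do not show a like response.

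Whether the lines responded differently was tested with a limma F-test on the mean response of both conditions. Each gene has 3 residual degrees of freedom of its own, and limma moderates its spread with that of all tested genes. In this model the GSK343 and shEZH2 libraries of a line served as samples of a shared targeted state, though they are not replicates of a treatment. The residual spread is the gap between them, and the lone control of each line adds nothing to it. An unusual control therefore cannot be told apart from a difference between lines. It called 0 of the 9 genes and 0.0231% of all tested genes. IL6 had almost the same mean difference in each line (1.93, 1.77 and 1.91, adjusted p = 0.836). IL11 had the highest F of the 9 (0.96, 1.02 and 1.97, F = 24) and missed after adjustment (adjusted p = 0.0862). IL6ST (0.26, 0.64 and -0.41, adjusted p = 0.0977) and LIF (0.20, 0.78 and 0.90, adjusted p = 0.137) also missed. At an unadjusted p under 0.05 these 3 genes passed, with p from limma of 0.000885 for IL11, 0.00504 for IL6ST and 0.0267 for LIF. The share of all tested genes at that cut-off is not given, so whether 3 of 9 is unusual was not tested. The F-test depended on MDA-MB-231. Without its GSK343 library 6 of the 9 genes passed (LIF, IL11, IL6ST, OSMR, LIFR and SOCS3) among 3966 genes called, and without its shEZH2 library 4 did (IL11, IL6ST, LIFR and SOCS3) among 4049.

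The order of the levels in the set changed places at the top. In the libraries labelled GSK343 and in those labelled shEZH2 the means ran IL6, IL11, LIF, IL6ST, STAT3, OSMR, SOCS3, IL6R and LIFR, high to low in RPKM. In the controls they ran IL6ST, IL6, LIF, STAT3, IL11, OSMR, SOCS3, LIFR and IL6R. Under both interventions the ranges of neighbours overlapped except between IL6ST and STAT3 and between OSMR and SOCS3. In the controls they overlapped except between SOCS3 and LIFR.

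Other genes of the pathway were read from lists. Of 8 further gp130 family ligands 3 were expressed enough to be tested, and 1 rose under each label. Of all tested genes 6.25% rose under GSK343 and 8.35% under shEZH2. The ligand gene that rose was EBI3, the shared subunit of interleukin-27 and interleukin-35. Its RPKM was 12.3, 21.4 and 17.4 under GSK343 and 15.7, 22.2 and 16.8 under shEZH2, against 3.72, 11.2 and 3.92 in the controls. All 6 intervention libraries were above all 3 controls, and the fold change was 1.43 ± 0.43 (adjusted p = 0.00215) under GSK343 and 1.54 ± 0.43 (adjusted p = 0.00162) under shEZH2. CTF1 (0.52 ± 0.41, adjusted p = 0.0787 in the mean of both) and CLCF1 (0.25 ± 0.34, adjusted p = 0.289), both gp130 ligands, were not called. OSM, the ligand of OSMR, did not exceed 0.0857 RPKM, and IL31 was at 0 in all 9 libraries. Of 4 further receptor genes, 3 were tested and 1, CNTFR (0.52 ± 0.31, adjusted p = 0.0295), was called higher in the mean of both, as were 12.2% of all tested genes, and in neither condition alone. That call was lost without the GSK343 library labelled MDA-MB-453, without the shEZH2 library of MDA-MB-436 or MDA-MB-453, and without the control of MDA-MB-436 or MDA-MB-453 (0.40 to 0.50). Without all libraries labelled MDA-MB-453 its adjusted p was 0.28, and without those of MDA-MB-436 it was 0.12. IL27RA (-0.18 ± 0.28) and IL31RA (-0.05 ± 0.43) were not called.

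Among 8 tested of 10 JAK kinases and other STATs, 1 rose under each label and 0 fell, which with so few genes is near the 6.25% and 8.35% of all tested genes called higher. STAT2, which acts in the type I interferon response, had RPKM of 13.3, 7.73 and 11.2 under GSK343 and 18.8, 7.63 and 12.7 under shEZH2, against 6.32, 3.44 and 4.90 in the controls. Each intervention library was above every control. Its fold change was 0.996 ± 0.31 under GSK343 (adjusted p = 0.0029) and 1.20 ± 0.31 under shEZH2 (adjusted p = 0.00121). TYK2 (0.42 ± 0.31, adjusted p = 0.0633) and STAT6 (0.16 ± 0.26, adjusted p = 0.366) did not pass in the mean of both.

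Of 16 other negative regulators of JAK-STAT signalling (SOCS, PIAS and phosphatase genes), 12 were tested and 0 were called in any contrast by limma, with 1, 0 and 1 at an unadjusted p under 0.05 under GSK343, under shEZH2 and in their mean. Of all tested genes 7.85%, 10.6% and 16.5% were called in these contrasts, so 0 of 12 is not far from the share. The median fold change of the 12 was -0.14 in the mean of both, beside 0.05 for all genes. SOCS2 had the lowest p of the list (-0.34 ± 0.33, adjusted p = 0.133), and SOCS5 (-0.28 ± 0.35), SOCS6 (-0.25 ± 0.32) and PTPN2 (-0.24 ± 0.27) were also negative and not called. All 5 genes for receptor shedding and turnover were tested and 0 were called by limma, with 1, 1 and 2 at an unadjusted p under 0.05. With so few genes, 0 of 5 is near the same shares of all tested genes. For neither list is the share of all tested genes at an unadjusted p under 0.05 given. ADAM17, the protease known to release soluble IL6R, was at 0.22 ± 0.30, its cofactor RHBDF2 at 0.34 ± 0.32 and ADAM10 at -0.36 ± 0.34.

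STAT3 target genes moved in part. Of 30, 23 were tested, 6 rose and 1 fell under GSK343, 7 rose and 0 fell under shEZH2, and 8 rose and 1 fell in the mean of both, where the median was 0.34. Of all tested genes 6.25% rose and 1.60% fell under GSK343, 8.35% and 2.28% under shEZH2, and 12.2% and 4.30% in the mean, where their median was 0.05. Genes that rose in the mean included BCL6, a transcriptional repressor (1.01 ± 0.25, adjusted p = 0.000441), IER3, an early response gene (1.26 ± 0.54, adjusted p = 0.00703), the kinase gene PIM1 (0.82 ± 0.31, adjusted p = 0.00428) and the transcription factor CEBPB (0.83 ± 0.34, adjusted p = 0.00585). BCL6 had 11.4, 5.49 and 10.2 RPKM under GSK343 and 11.7, 5.88 and 9.24 under shEZH2, against 5.36, 2.34 and 4.13 in the controls, where each library exceeded every control. CCND1, the cyclin D1 gene, was the one that fell (-0.54 ± 0.31, adjusted p = 0.0254), at 126.9, 38.3 and 118.0 RPKM under GSK343 and 183.5, 48.1 and 108.4 under shEZH2, against 260.5, 57.3 and 154.0 in the controls. Its call was lost without the GSK343 library of MDA-MB-231 (adjusted p = 0.0507), the shEZH2 library labelled MDA-MB-453 (adjusted p = 0.0614), or the control of MDA-MB-231 (adjusted p = 0.113) or MDA-MB-453 (adjusted p = 0.0729). It was also lost without any whole line, MDA-MB-231 (adjusted p = 0.123), MDA-MB-436 (adjusted p = 0.0536) or MDA-MB-453 (adjusted p = 0.0906). Many of these genes also answer to NF-kB or other factors, so the list does not measure STAT3 activity. Leaving out the control labelled MDA-MB-453 reduced the count of 9 calls to 3. Without that whole line it was 1, BCL6, the calls of PIM1 (adjusted p = 0.0756), IER3 (adjusted p = 0.0708) and CEBPB (adjusted p = 0.102) being lost. Without MDA-MB-231 it was 4, with CEBPB lost too (adjusted p = 0.0705).

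The list of genes that act on IL6 transcription and on the decay of its mRNA had 14 members, all tested. Under GSK343 6 rose, under shEZH2 5 rose, and 0 fell in either. In the mean of both 7 rose and 1 fell, with a median of 0.41. The shares of all tested genes that rose in these contrasts were 6.25%, 8.35% and 12.2%, and 4.30% fell in the mean, with a median of 0.05. TNFAIP3, an inhibitor of NF-kB signalling (1.43 ± 0.43, adjusted p = 0.00118), NFKBIZ, a nuclear coactivator of IL6 transcription (0.94 ± 0.27, adjusted p = 0.000983), and ZC3H12A, the RNase that degrades IL6 mRNA (1.16 ± 0.42, adjusted p = 0.00342), rose beside CEBPB, which is in both lists. Activators and inhibitors of IL6 were thus both among the genes that rose. NFKBIZ had 9.55, 17.95 and 12.5 RPKM under GSK343 and 8.84, 16.5 and 13.6 under shEZH2, against 3.76, 8.16 and 7.54 in the controls. ELAVL1, whose protein binds and stabilises AU-rich mRNAs, was the member that fell (-0.38 ± 0.24, adjusted p = 0.0376), and its call was lost in each of the 9 fits that left out 1 library (-0.41 to -0.34, adjusted p = 0.0529 to 0.11). Leaving out the control labelled MDA-MB-453 reduced the count of 8 calls to 3, and ZC3H12A (1.01, adjusted p = 0.0546) and CEBPB (0.74, adjusted p = 0.057) were among those lost. Without that whole line it was 2, NFKBIZ and TNFAIP3. The calls of CEBPB (adjusted p = 0.102), ZC3H12A (1.01, adjusted p = 0.09) and ELAVL1 (-0.40, adjusted p = 0.13) were among those lost there. Without MDA-MB-231 the count was 4, and ZC3H12A (0.95, adjusted p = 0.0572) was among those lost.

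**Figure D4:**
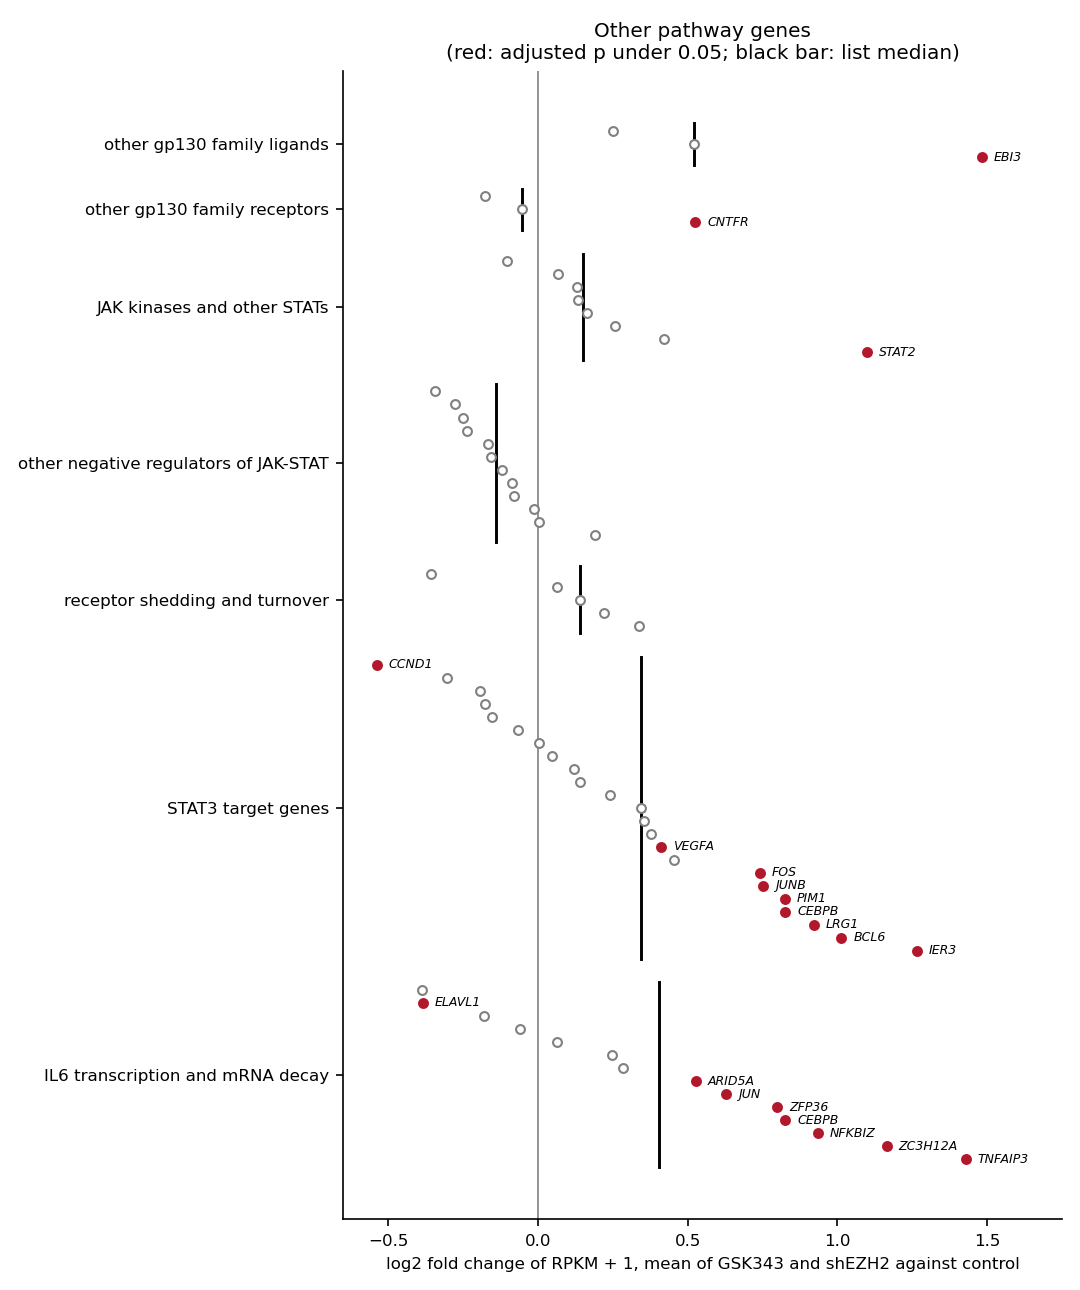
Log2 fold change of RPKM + 1 in the mean of GSK343 and shEZH2 against control (horizontal axis) for the tested genes of 7 lists, 1 point per gene, with the list median as a black bar. Genes with an adjusted p under 0.05 are filled and named. The STAT3 target and IL6 transcription lists hold most of them (9 of 23 and 8 of 14), and the negative regulators (12 tested) and shedding genes (5 tested) hold 0. Of all tested genes 16.5% passed in this contrast.

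Genes with the pattern most like each member were ranked by the root mean square difference of log2(RPKM + 1), centred within lines, over the 9 libraries. For IL6, whose own root mean square deviation was 0.887, they included RPL39P40 (0.155), CXCL2 (0.190), ECM1 (0.191) and AC003092.1 (0.214). RPL39P40 is a ribosomal protein pseudogene and its value is uncertain, since reads from a near-identical copy can be assigned to it. CXCL2, a chemokine, had 36.2, 181.4 and 93.2 RPKM under GSK343 and 18.3, 172.0 and 85.8 under shEZH2, against 5.93, 62.7 and 27.0 in the controls, with MDA-MB-436 highest in each condition as for IL6. For IL11 the nearest were CDA (0.101), GRN (0.111) and RP5-1187M17.10 (0.113). For LIF they were HARBI1, TMEM55B and SLC25A25, for IL6R LINC00888, DNAJC3-AS1 and GINS3, and for IL6ST TMEM135, RB1CC1 and SLC25A36. OSMR was nearest to EIF4G3, PNMA2 and IRAK3, and LIFR to FAT1, BBX and FRYL. STAT3 was nearest to ADAM11, PPP2R2D and SEC14L1, and SOCS3 to AC069282.6, MAZ and CALM3. The own deviation of STAT3 was only 0.0885, so any gene that varies little lies near it. ADAM11, at 0.263 to 1.17 RPKM, and AC069282.6, at 0.386 to 1.59, are low genes whose changes are flattened by the added 1. These likenesses describe the 9 libraries, in which genes share the library and the condition.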

How the data were processed

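A table of RPKM values with 58037 rows and 9 library columns (0 unused) was deposited by the authors, who used STAR and HTSeq on GRCh38 per the submitters' processing notes. Their versions, the annotation and the strand setting were not stated there. Reads per gene were recovered from RPKM and GENCODE 29 exon lengths (low values, under 20 reads, were whole within 0.05 in 100% of cases; 92.5% of identifiers occur there in the same version) and used for depth and for exact 95% intervals of within-line ratios, which cover counting error only. RPKM are not counts, so the test was limma 3.58.1 (R 4.3.3) on log2(RPKM + 1), with treatment and cell line as terms, a mean-variance trend, genes that reached an RPKM of 1 in 3 or more libraries (12965), and Benjamini-Hochberg adjustment over all of them (threshold 0.05, two-sided, 4 residual degrees of freedom). In limma the spread of each gene is moderated with that of all tested genes. The p-values and intervals therefore draw on more than the residual degrees of freedom of a gene. A second limma model tested differences between lines. The code was tested on simulated data. With 3 pairs, an exact sign-flip test reaches no p below 0.25, so it was not used.

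Pairing is by cell line. Correlations across genes, after centring on the mean of each condition, were 0.358 to 0.953 within lines and -0.914 to 0.090 across lines. The centring itself pushes the correlations across lines down, so the contrast does not test the pairing. The members and lists were chosen with earlier results of these data known. All 9 members are named. Of each other list up to 4 genes with the smallest unadjusted p in the mean of both interventions are named, and CCND1, ELAVL1, OSM, IL31 and the markers CD3E, CD14, LUM and the other markers called were added after their values were seen. Values of a few genes that the rule names are not reported here. Alternatives were no filter, a mean RPKM of at least 5, other pseudocounts and scalings, no cell line term, fits on 6 libraries, and leaving out each library or line. Fold changes are of RPKM + 1 and understate changes of low genes.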

Additional observations from a re-analysis of the deposited data

Results flagged for a closer look

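Lines with opposite directions were found for 3 of the 9 genes. There both intervention libraries of a line lay on the same side of its control, and those of another line on the other side. The share of all tested genes with this pattern is not given, so whether 3 of 9 is unusual was not tested. The mean log2 difference of IL6ST from control in MDA-MB-453 minus that in MDA-MB-231 was -0.67, and minus that in MDA-MB-436 it was -1.05. For LIFR the difference of MDA-MB-453 from MDA-MB-436 was -0.92. SOCS3 differed in the other direction, with -0.64 for MDA-MB-231 minus MDA-MB-453 and -0.65 for MDA-MB-436 minus MDA-MB-453. The limma F-test of a difference between lines did not call any of them (adjusted p = 0.0977 for IL6ST, 0.227 for LIFR and 0.232 for SOCS3). All 5 values use the control labelled MDA-MB-453, in which these 3 genes lie outside the range of the other 2 controls, while under GSK343 and shEZH2 the libraries labelled MDA-MB-453 lie between the other lines with a margin of a factor of 1.25. Its part in these differences was not tested.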

How the results depend on the processing

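Of the members' fold changes and F values under all alternatives, 787 kept direction and side of the threshold, 24 lost and 16 gained the threshold, and 32 changed sign. Each change of sign was in a contrast where the gene was not called. IL6 passed in every leave-one-out fit (1.88 to 2.06 under GSK343 and 1.73 to 1.84 under shEZH2), as did IL11 (0.99 to 1.49 and 0.99 to 1.496). When 1 library was left out, counts of members called ranged from 2 to 3 under GSK343, under shEZH2 and in their mean, from 0 to 0 between them, and from 0 to 6 for differences between lines. Without the filter on low values (36845 genes tested) 1 member was called in each contrast with control (IL6) and 1 in the test of lines (IL11). Of all those genes only 14, 15 and 186 were called under GSK343, under shEZH2 and in their mean, and 887 in the test of lines. With no replicate block for cell line 0, 0 and 0 members were called (IL6 adjusted p = 0.524, 0.475 and 0.251), beside 2, 2 and 3 of all 12965 genes. Without the libraries labelled MDA-MB-453 1 member was called under shEZH2, among 16 of all 12965 genes. These falls are thus of the whole table and not particular to the members. LIF in the mean of both lost its call without the control of MDA-MB-436 (0.55, adjusted p = 0.0652) or MDA-MB-453 (0.49, adjusted p = 0.101). Sign changes on leaving out a library gave ranges for LIFR of -0.46 to 0.0046 under GSK343, -0.32 to 0.16 under shEZH2 and -0.39 to 0.0704 in the mean, and for IL6ST of -0.0748 to 0.45, -0.0673 to 0.46 and -0.0710 to 0.45. For GSK343 against shEZH2 they were -0.24 to 0.0829 for LIF, -0.21 to 0.11 for IL11, -0.21 to 0.13 for IL6ST, -0.32 to 0.015 for OSMR, -0.37 to 0.0671 for LIFR and -0.33 to 0.0237 for SOCS3. Without the line MDA-MB-231 that contrast was 0.00702 for IL11, 0.105 for IL6ST, 0.0335 for OSMR, 0.103 for LIFR and 0.0157 for SOCS3. Without MDA-MB-436 IL6ST was -0.128, -0.0136 and -0.0710 under GSK343, shEZH2 and their mean, and IL11 between the interventions 0.0414. Without MDA-MB-453 LIFR was 0.222 under shEZH2 and 0.0704 in the mean, and LIF between the interventions 0.0403. The cause was not tested. Alternatives for other pathway genes were chosen after seeing the data. Each line and condition has 1 library, so culture-to-culture spread is unknown, and low transcripts such as IL6R in MDA-MB-231 are limited by depth.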

Other observations

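Within MDA-MB-231 the libraries labelled GSK343 and shEZH2 stood apart for several of the genes, with 1 library each and hence no test. The RPKM ratio of GSK343 to shEZH2 was 0.554 for LIFR (95% counting interval 0.491 to 0.625), 0.650 for OSMR (0.617 to 0.685) and 0.685 for SOCS3 (0.611 to 0.767). It was 0.847 for IL6ST and 0.846 for STAT3, and 2.06 for IL6R (1.21 to 3.58), which rests on 40 and 24 reads. In MDA-MB-436 the ratio was 1.03 for LIFR, 1.03 for OSMR and 1.02 for SOCS3, and in MDA-MB-453 1.16, 1.02 and 1.002. Over all 27 pairs of gene and line, 22 ratios of GSK343 to control were above 1, with 20 counting intervals above 1 and 5 below. For shEZH2 to control 23 were above 1, with 18 intervals above and 4 below. For GSK343 to shEZH2 15 were above 1, with 8 intervals above and 8 below. Matching counts over all tested genes are not given, so whether these counts are unusual was not tested. The intervals cover counting error only, so an interval that leaves out 1 does not show a difference beyond the spread between cultures. The 27 pairs are not independent, because pairs of a line share their libraries and each gene appears in every line.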
